A study of Mus musculus with 8 samples.

Results

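Interferon-inducible GTPases were followed in lumbar intervertebral discs of mice with proteoglycan-induced spondylitis. The set holds 9 genes of 2 families, the guanylate-binding proteins (GBPs) Gbp2, Gbp3, Gbp4 and Gbp7 and the immunity-related GTPases (IRGs) Iigp1, Tgtp1, Igtp, Irgm1 and Irgm2. Its members were the probe sets whose platform annotation names only 1 of these genes. This left 7 genes with 10 probe sets, of 18193 genes with 34945 probe sets in all. Gbp4 and Tgtp1 were named only by a probe set that also names a relative, 1 probe set each, so they have no value here.

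Immunized samples (5) came from female BALB/c mice injected on days 0, 21 and 42 with cartilage proteoglycan (100 µg as protein) mixed with 2 mg of DDA, the adjuvant dimethyldioctadecylammonium bromide. Naive samples (3) came from female BALB/c mice of the same age that were not immunized. Each sample was total RNA of 6 pooled lumbar discs, hybridized to Affymetrix arrays. The descriptions of immunized replicate 1 and naive replicate 3 join 2 sample numbers each. Age, the day of tissue collection and disease scores are not given in the sources used here. Adjuvant without proteoglycan was not analysed here, so the 2 agents cannot be told apart.

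GBPs and IRGs are GTP-binding proteins that cells make in large amounts after exposure to interferons, above all interferon gamma. In mouse cells GBPs gather on the vacuoles of intracellular microbes and on bacteria, and help to open them and to start inflammasome signalling. The IRG effectors Iigp1 and Tgtp1 load onto such vacuoles, while the IRG regulators Irgm1, Irgm2 and Igtp sit on the cell's own membranes and keep the effectors off them. Their genes carry interferon-stimulated response elements (ISREs), bound by interferon regulatory factors, and gamma-activated sites (GAS), bound by STAT proteins.

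The 250 bases before the annotated start of each gene were searched on both strands for the ISRE core GAAANNGAAA and for the GAS core TTCNNNGAA, in RefSeq promoters of assembly GRCm38.p6. The table held 8 promoters of 7 of the 9 genes, all but Gbp4 and Iigp1. All 7 genes had an ISRE core, in 7 of the 8 promoters, against 2.98% of all 32851 promoters. The second promoter of Gbp3 had none. A GAS core was present in 4 of the 8 (Gbp7, Igtp, Irgm2 and Tgtp1), against 7.02% of all promoters, and both cores together in the same 4, against 0.332%. A match describes letters in this window and is not evidence of binding in these discs. The 120 bases before the start are printed for the 6 measured genes in the table, because they show the ISRE core in a gene whose transcript rose (Gbp3) and in one whose transcript did not pass the test (Gbp2). Capitals mark both cores.
Gbp3 (chr3:142559924-142560043, plus strand): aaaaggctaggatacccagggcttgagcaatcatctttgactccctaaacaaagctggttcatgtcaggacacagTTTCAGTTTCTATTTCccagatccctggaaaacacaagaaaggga
Gbp7 (chr3:142530216-142530335, plus strand): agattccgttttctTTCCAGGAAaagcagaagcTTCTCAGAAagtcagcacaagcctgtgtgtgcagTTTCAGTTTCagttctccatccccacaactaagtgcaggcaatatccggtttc
Gbp2 (chr3:142620543-142620662, plus strand): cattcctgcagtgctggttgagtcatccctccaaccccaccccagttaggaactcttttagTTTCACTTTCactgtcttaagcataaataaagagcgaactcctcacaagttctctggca
Igtp (chr11:58199436-58199555, plus strand): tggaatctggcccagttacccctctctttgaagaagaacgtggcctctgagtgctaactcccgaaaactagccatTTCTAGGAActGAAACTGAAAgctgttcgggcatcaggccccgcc
Irgm2 (chr11:58214857-58214976, plus strand): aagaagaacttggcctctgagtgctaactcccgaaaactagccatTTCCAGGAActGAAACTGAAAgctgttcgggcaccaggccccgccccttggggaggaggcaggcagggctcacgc
Irgm1 (chr11:48871421-48871540, minus strand): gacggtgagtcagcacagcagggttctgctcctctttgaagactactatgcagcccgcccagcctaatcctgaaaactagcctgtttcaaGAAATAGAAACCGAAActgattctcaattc

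In Gbp3 and Irgm1 a pair of ISRE cores overlapped, at 45 to 30 bases before the start in Gbp3 and at 30 to 15 bases in Irgm1. For Gbp3, positions are counted from the start of its promoter entry, which lies 28 bases downstream of the start in the RefSeq gene table; the other printed genes have 1 start in both. In Igtp the GAS core lay at 45 to 37 bases and the ISRE core at 34 to 25 bases before the start. Irgm2 had the same pair at 75 to 67 and at 64 to 55 bases, and Tgtp1 at 88 to 80 and at 77 to 68 bases. The printed windows of Igtp and Irgm2 shared a run of 38 identical bases, ending within the GAS core. Gbp3 and Gbp7 shared 13 bases across the ISRE core. In the 3 GBP genes the ISRE core read on the strand opposite to the gene, and in the 4 IRG genes on the gene's own strand.

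**Figure D1:**
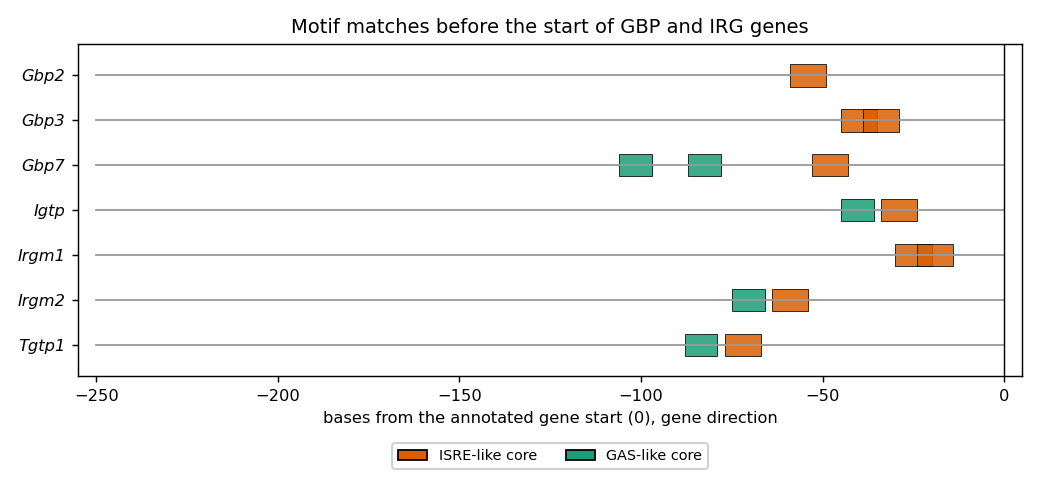
Positions of motif matches in the 250 bases before the annotated start of 7 GBP and IRG genes (x axis, bases from the start in the gene's direction; for Gbp3, the promoter that has matches). Orange boxes are ISRE cores, green boxes GAS cores; every gene has an ISRE core within 80 bases of the start, and Igtp, Irgm2 and Tgtp1 have a GAS core just before it.

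Expression values are on the log2 scale of robust multi-array averaging (RMA), with each probe set set to a median of 0 over the arrays, and levels of different genes cannot be compared. Each gene is the mean of its probe sets. Immunized and naive samples were compared with limma over all 18193 genes, with Benjamini-Hochberg adjustment over all of them and a threshold of 0.05. Differences are immunized minus naive, with limma's standard errors (SE), also where only ± is printed below. Of the 7 measured GTPase genes, 1 rose (Gbp3) and 0 fell in limma, against 4.46% of all genes higher and 4.68% lower. Before adjustment, 4 of the 7 had p under 0.05 and were higher (Gbp3, Igtp, Irgm1 and Irgm2) and 0 were lower, against 12.9% and 18.2% of all genes. That count of 4 was 2 without naive replicate 2, naive replicate 3 or immunized replicate 1 (against 10.8%, 11.5% and 10.7% of all genes). It was 3 without immunized replicate 3 or 5 (against 11.5% and 11.2%), and 5 without naive replicate 1 (against 11.2%). By position, 2 of the 7 had every immunized sample above every naive sample and 0 had the opposite, against 9.39% and 14.0% of all genes. The median difference was 0.465 over the 7 genes and -0.035 over all genes, and 6 of the 7 differences were positive. The median was 0.746 without naive replicate 1 and 0.36 without naive replicate 3, where 5 of the 7 were positive. Labels call the replicates biological but do not say that each came from a separate mouse, so p-values measure the spread between these samples. In RNA of whole discs, more cells of a type and more RNA per cell cannot be told apart.

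The number of calls over all genes depended on single samples. It lay between 17 and 1293 for higher and between 4 and 1710 for lower genes when 1 sample was left out, against 812 and 851 with all 8. The lowest counts came without naive replicate 2 and the highest without immunized replicate 2. The SD of all values was 0.209 to 0.316 in immunized arrays, against 0.411, 0.294 and 0.287 in naive replicates 1 to 3, so that naive replicate 1 was the widest array. Cartilage genes were well above the lowest signals. In each probe set of Acan, Col2a1, Comp and Hapln1 even the lowest array was at 8 or more (log2), as far as the spacing of the printed values shows. Of 3 probe sets of Sox9, 2 were in this class and 1 was at 4 to 8. Over all probe sets the class held 32.1%.

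Gbp3, a GBP that limits intracellular bacteria and parasites in mouse cells, had 0.30, 0.071, -0.071, 0.70 and 0.12 in immunized replicates 1 to 5, against -0.56, -0.76 and -0.85 in naive replicates 1 to 3. Every immunized sample lay above every naive sample. Gbp3 rose by 0.95 ± 0.17 (SE; limma, adjusted p = 0.0208), or 1.93-fold. Immunized replicate 4 was the highest sample, and without it the difference was 0.83 (adjusted p = 0.0240). Gbp3 did not pass when naive replicate 2 (0.93, adjusted p = 0.0767), naive replicate 3 (0.88, 0.0624) or immunized replicate 1 (0.93, 0.0623) was left out. Nor did it pass without both samples of joined numbers (0.86, adjusted p = 0.157) or without immunized replicates 3 and 5 and naive replicate 1 together (1.16, adjusted p = 0.0501). These 3 samples were set apart as high in marrow genes, from earlier results of these data.

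Gbp7, a GBP that acts in antibacterial defence, was measured by 2 probe sets that disagreed. On 1434380_at it had 0.36, -0.049, 0.21, 0.28 and 0.049 in immunized replicates 1 to 5, against -0.32, -0.70 and -0.85 in naive replicates 1 to 3. The groups did not overlap on this probe set, as was the case with immunized above naive for 9.01% of all 45037 probe sets. Tested singly, with adjustment over all probe sets, 1434380_at differed by 0.80 ± 0.14 (limma, adjusted p = 0.0228), against 3.30% of all probe sets called higher. With naive replicate 2 left out it did not pass (0.76, adjusted p = 0.0851), nor with naive replicate 3 (0.69, 0.0599) or immunized replicate 1 (0.75, 0.0684) left out, nor without both samples of joined numbers (0.64, 0.148).

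On 1425156_at Gbp7 had 0.17, -0.40, 0.011, 0.52 and -0.029 in immunized samples, against 0.86, -0.011 and -0.22 in naive samples. Here naive replicate 1 was the highest of all 8 arrays, and the groups overlapped. The difference was -0.15 ± 0.26 (limma, adjusted p = 0.741), and 0.17 (adjusted p = 0.673) without naive replicate 1. Set against each other within a sample, 1425156_at minus 1434380_at averaged -0.12 ± 0.22 in immunized samples and 0.84 ± 0.30 in naive samples (SD, n = 5 and 3). The two-sided exact permutation p for this gap between the groups was 0.0357, the smallest value that 56 splits allow. It did not pass after adjustment over the 3 genes with 2 probe sets (adjusted p = 0.107). The mean of both probe sets differed by 0.32 ± 0.20 (limma, adjusted p = 0.297), and by 0.56 without naive replicate 1 (adjusted p = 0.0952). Over all single samples left out this difference lay between 0.16 and 0.56 (limma, adjusted p between 0.0952 and 0.658).

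Gbp2, which in mouse cells opens vacuoles that hold bacteria, did not follow Gbp3. It had 0.073, 0.25, -0.35, 0.027 and -0.74 in immunized replicates 1 to 5, against 0.17, 0.0091 and -0.16 in naive replicates 1 to 3. Immunized replicates 5 and 3 were the lowest samples of all 8, and the naive values lay inside the immunized range. The difference was -0.16 ± 0.21 (limma, adjusted p = 0.649), and -0.009 without immunized replicate 5. Both probe sets of Gbp2 gave like values, differing by at most 0.25 in any sample.

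Among the IRG regulators, Irgm1, which guards host membranes and supports autophagy in macrophages, had 0.47, -0.089, 0.18, 0.34 and 0.089 in immunized replicates 1 to 5, against -0.10, -0.22 and -0.48 in naive replicates 1 to 3. No naive sample reached the immunized range, although immunized replicate 2 and naive replicate 1 lay close together. Gbp3 and Irgm1 were the 2 of 7 genes with all immunized samples above all naive samples. The difference in Irgm1 was 0.465 ± 0.14 and did not pass the test (limma, adjusted p = 0.0649). Without immunized replicate 2 it was 0.54 (limma, adjusted p = 0.0266), where 1293 genes were called higher, against 812 with all 8 samples. Over all single samples left out it lay between 0.36 and 0.55 (limma, adjusted p between 0.0266 and 0.171).

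Igtp, also called Irgm3, a regulator on the endoplasmic reticulum and lipid droplets, had 0.63, -0.091, 0.71, -0.18 and 0.091 in immunized samples, against 0.30, -1.03 and -1.06 in naive samples. Naive replicates 2 and 3 were about 1 unit below the median of the arrays, while naive replicate 1 lay above 3 of the 5 immunized samples. The difference was 0.83 ± 0.34 (limma, adjusted p = 0.140). Without naive replicate 1 it was 1.28 ± 0.26 (adjusted p = 0.0538), over 1.5 times as large. Over all single samples left out the difference lay between 0.59 and 1.28 (limma, adjusted p between 0.0538 and 0.352).

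Irgm2, a regulator that in mouse cells also restrains caspase-11 activation, had 0.47, -0.18, 0.52, -0.011 and 0.011 in immunized samples, against 0.054, -0.59 and -0.80 in naive samples. As in Igtp, immunized replicates 1 and 3 were the highest samples and naive replicate 1 stood among the immunized ones. The difference was 0.61 ± 0.23 (limma, adjusted p = 0.108), and 0.86 ± 0.20 without naive replicate 1 (adjusted p = 0.0676). Over all single samples left out it lay between 0.43 and 0.86 (limma, adjusted p between 0.0676 and 0.287).

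The IRG effector Iigp1, also called Irga6, varied most. It had 0.89, 0.28, -0.39, 0.39 and -0.82 in immunized replicates 1 to 5, against 0.85, -0.28 and -1.08 in naive replicates 1 to 3. Both groups spanned wide, overlapping ranges (SD 0.68 in immunized and 0.97 in naive samples), and its 2 probe sets differed by at most 0.19 in any sample. The difference of 0.24 ± 0.47 did not pass (limma, adjusted p = 0.767). It was -0.22 without naive replicate 3 and 0.75 without naive replicate 1, with an adjusted p of 0.798 and 0.323.

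**Figure D2:**
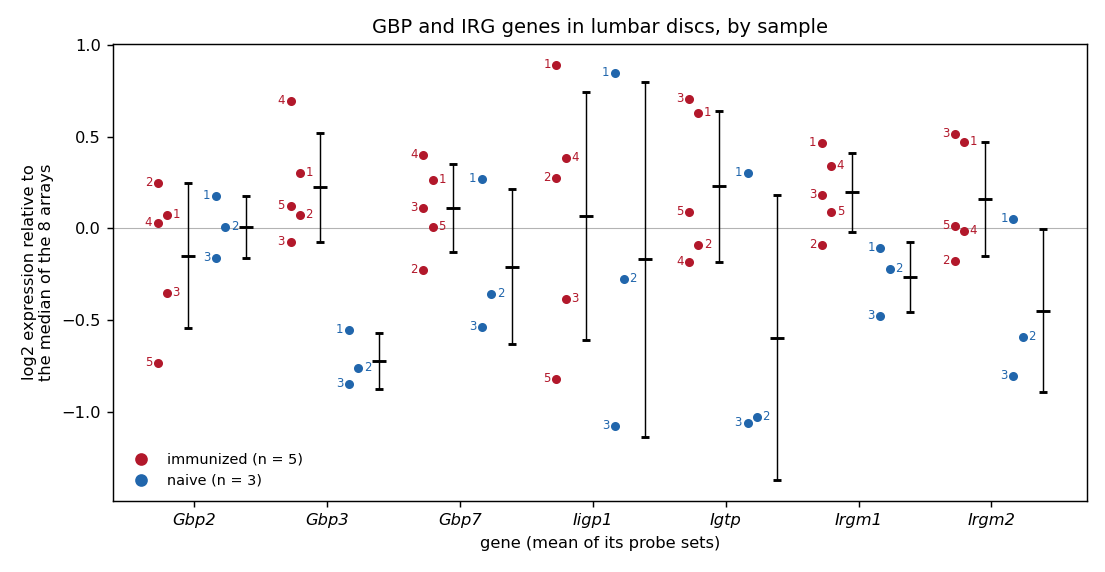
Log2 values of each sample, with the median array at 0 (y axis) for 7 GBP and IRG genes; points are samples, digits replicate numbers, and bars beside them the group mean ± SD (5 immunized, 3 naive). Gbp3 and Irgm1 show no overlap between the groups, naive replicate 1 is the highest naive sample in all 7 genes, and Iigp1 spans -0.82 to 0.89 in immunized and -1.08 to 0.85 in naive samples.

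Samples differed within each group across the family. The mean over the 7 genes was 0.44, 0.0014, 0.10, 0.24 and -0.18 in immunized replicates 1 to 5, against 0.14, -0.46 and -0.71 in naive replicates 1 to 3. Naive replicate 1 was the highest naive sample in 7 of 7 genes and in the mean lay above 3 of the 5 immunized samples. Naive replicate 3 was the lowest of all 8 samples in 6 of 7 genes. Immunized replicate 1 had 5 of the 7 genes above every naive sample, and immunized replicate 5 had 2. For these counts by sample no share over all genes was computed, and naive replicate 1 was the widest array (SD 0.411). They describe the samples and do not show a trait particular to the GTPases.

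Of 19 other GBP and IRG genes listed, 7 were measured, 2 rose and 0 fell in limma, and their median difference was 0.12. That median was set by single samples, at 0.40 without naive replicate 1, -0.14 without naive replicate 3 and -0.050 without immunized replicate 1. Gbp8, a GBP of the second gene cluster, had 0.93, 0.29, 0.44, -0.13 and 0.13 in immunized samples, against -0.59, -0.62 and -0.97 in naive samples. Gbp8 rose by 1.06 ± 0.22 (adjusted p = 0.0277), more than any of the 7 members by its estimate. The IRG-like gene Gm4951 had 0.60, 0.32, 0.027, 0.29 and -0.027 in immunized samples, against -0.29, -0.64 and -0.80 in naive samples, and rose by 0.82 ± 0.16 (adjusted p = 0.0270). In both genes the groups did not overlap. Leaving out 1 sample gave between 0 and 3 calls in place of 2, with 0 when naive replicate 2, naive replicate 3 or immunized replicate 1 was left out. After quantile normalization both calls ended, narrowly (adjusted p = 0.0530 for Gbp8 and 0.0501 for Gm4951).

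Ifi47, an IRG also called Irgd, differed by 0.75 ± 0.25 (limma, adjusted p = 0.0825), and by 0.88 without immunized replicate 2 (adjusted p = 0.0357). Over all single samples left out this difference lay between 0.60 and 1.01 (limma, adjusted p between 0.0357 and 0.213). Like Igtp and Irgm2, Ifi47 was highest in immunized replicate 3 (0.69), while naive replicate 1 (-0.0058) lay well above the other naive samples (-0.73 and -0.83). Gbp6 (0.12 ± 0.33) and Gbp2b (-0.079 ± 0.19), both GBPs, did not pass. In Gbp2, Gbp6, Gbp2b and Iigp1 alike, immunized replicate 5 was the lowest immunized sample and replicate 3 the next, and naive replicate 1 was the highest and naive replicate 3 the lowest naive sample. The IRG relatives Irgq (-0.16 ± 0.082) and Irgc1 (-0.066 ± 0.11) did not pass either. As a mean of its probe sets, Irgq had every immunized sample below every naive sample, as did 14.0% of all genes. This difference was -0.11 without naive replicate 1. On 1 of its 2 probe sets the groups did not overlap (-0.288 ± 0.13), while on the other they did (-0.037 ± 0.13). Neither probe set passed when tested singly. GBP and IRG genes form families of similar sequence, so a probe set can also bind the transcripts of a relative.

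**Figure D3:**
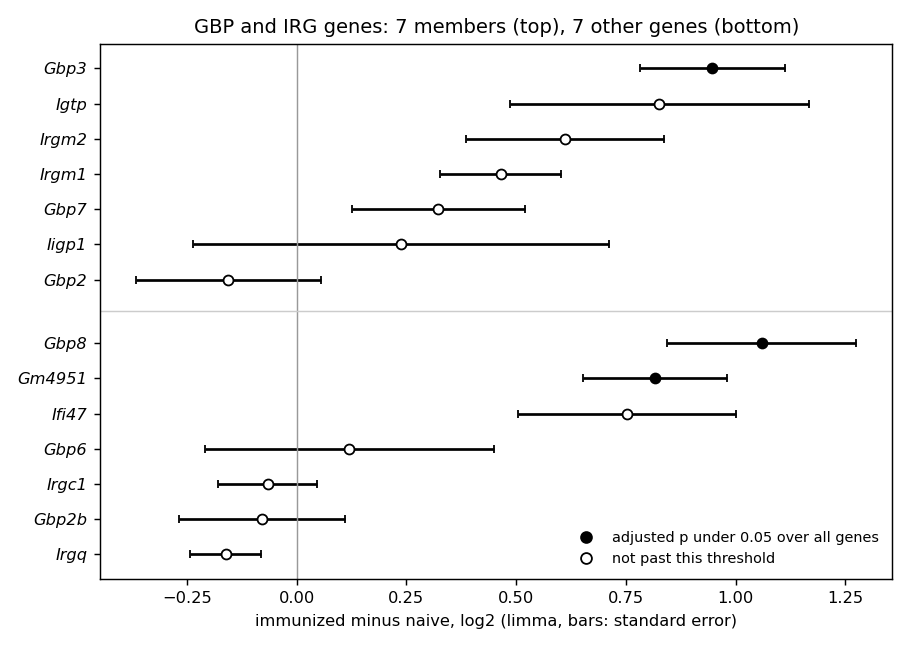
Difference between immunized and naive samples (x axis, log2, with limma's SE) for the 7 measured members above the line and 7 other GBP and IRG genes below it. Filled points are genes with an adjusted p under 0.05 over all genes, namely Gbp3 at 0.95, Gbp8 at 1.06 and Gm4951 at 0.82.

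Genes upstream of the GTPases were read from lists of ligands, receptors and signalling genes. Of 9 measured genes of interferons and their inducers, 0 passed in limma (unadjusted, 0 were higher and 2 lower). Ifng, the gene of interferon gamma, had -0.11, -0.022, -0.073, 0.14 and -0.068 in immunized samples, against 0.14, 0.075 and 0.022 in naive samples. The groups overlapped (-0.11 ± 0.080, adjusted p = 0.395). Ifng lay in the lowest level class, as it had no value once probe sets below 4 (log2) in their lowest array were omitted. That class held 11.7% of all probe sets, and a flat value there does not show an unchanged transcript. Ifna1 (-0.55 ± 0.16, adjusted p = 0.0650) and Ifnb1 (-0.37 ± 0.15, adjusted p = 0.125), genes of type I interferons, did not pass. Without naive replicate 1 they were -0.31 for Ifna1 and -0.25 for Ifnb1. Interferon protein was not measured.

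Of 19 measured receptor and signalling genes 5 rose and 0 fell, with a median difference of 0.37. Ifngr1, the ligand-binding chain of the interferon gamma receptor, rose by 0.64 ± 0.12 (adjusted p = 0.0239). The receptor-bound kinases Jak1 (0.40 ± 0.099) and Jak2 (0.44 ± 0.10) rose. So did Ptpn2, a phosphatase that restrains Jak1 (0.62 ± 0.10), and Usp18, a negative regulator of type I interferon receptor signalling (1.13 ± 0.21). Irf1, the transcription factor that acts on many GBP promoters, differed by 0.0091 ± 0.14 (adjusted p = 0.973). Leaving out 1 sample gave 3, 0 and 1 calls for naive replicates 1, 2 and 3, and 0, 6, 3, 3 and 2 calls for the 5 immunized replicates in turn.

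Other interferon-induced genes were counted beside the GTPases. Of 22 measured genes of the type I interferon response 11 rose and 0 fell (median difference 0.70), and of 23 genes induced by interferon gamma 3 rose and 0 fell (median 0.35). The first group included the RNA-binding antiviral gene Ifit1 (1.42 ± 0.30), the 2',5'-oligoadenylate synthetase genes Oas1a (1.56 ± 0.28), Oas2 (1.13 ± 0.21) and Oasl1 (1.00 ± 0.23), and the kinase gene Eif2ak2 (1.05 ± 0.18). It also held Herc6 (0.95 ± 0.17), Bst2, which tethers virus particles (0.84 ± 0.17), Cmpk2 (0.77 ± 0.18), the RNA sensor Ifih1 (0.67 ± 0.17), the nucleic acid sensor Zbp1 (0.56 ± 0.14) and Parp9 (0.41 ± 0.11). The second group's calls were Ubd, a ubiquitin-like modifier (0.95 ± 0.15), Cybb, a subunit of the phagocyte oxidase (1.24 ± 0.29), and Cd74, the invariant chain of MHC class II (0.77 ± 0.18). H2-Eb1, an MHC class II chain, did not pass (0.76 ± 0.21, adjusted p = 0.0534). With naive replicate 1 left out it passed (1.045, adjusted p = 0.0280). Over all single samples left out it lay between 0.616 and 1.045 (limma, adjusted p between 0.0280 and 0.158).

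For the type I list, the 11 calls became 4, 0 and 1 with naive replicates 1, 2 and 3 left out in turn, and 0, 11, 5, 7 and 6 with each immunized replicate left out. For the interferon gamma list, the 3 calls became 8, 0 and 0, and then 1, 4, 2, 1 and 1. After quantile normalization the counts were 5 and 1. Whether the lists differ from each other or from the GTPases was not tested. Of the large interferon-induced GTPases Mx1 and Mx2, antiviral relatives of dynamin, Mx1 rose by 0.67 ± 0.17 (adjusted p = 0.0457) and Mx2 differed by 0.037 ± 0.084 (adjusted p = 0.795). The Mx1 call ended when any sample other than immunized replicate 2 was left out (adjusted p between 0.0530 and 0.114).

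Partners of the GTPases were counted in the same way. Of 7 measured inflammasome genes 4 rose and 0 fell, among them Casp4, which encodes the mouse caspase-11 that acts with GBPs on cytosolic bacteria (1.12 ± 0.20), and Casp1 (1.38 ± 0.15). The pore-forming protein gene Gsdmd (0.81 ± 0.18) and Il1b (1.90 ± 0.47) were the others. These 4 calls became 3, 1 and 1 as naive replicates 1, 2 and 3 were left out, and 1, 6, 3, 2 and 2 for the immunized replicates. After quantile normalization 1 was called (Casp1), and Casp4 (adjusted p = 0.0504), Gsdmd (0.0539) and Il1b (0.0576) did not pass. Of 17 genes of autophagy and of other partners in vacuole targeting, 1 rose and 2 fell. In mouse cells the autophagy machinery places IRGs and GBPs on vacuoles. Atg3, a conjugating enzyme of that machinery, rose by 0.59 ± 0.12, while the ubiquitin-like Map1lc3a (-0.80 ± 0.14) and the receptor Calcoco1 (-0.38 ± 0.091) fell. Atg3 did not pass with immunized replicate 1 or 5, or any of the naive replicates, left out (adjusted p between 0.0526 and 0.0919). Map1lc3a did not pass with immunized replicate 1 or any of the naive replicates left out (adjusted p between 0.0593 and 0.0680). Calcoco1 passed only when immunized replicate 2 was the sample left out (otherwise adjusted p between 0.0548 and 0.0973). Atg12, of the same machinery, had a difference of 0.25 ± 0.095 (adjusted p = 0.113), and of 0.16 without naive replicate 1.

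The 10 genes whose 8 values lay closest to the mean profile of the 7 members, by the mean absolute log2 difference, were Rtp4 (0.110), Saa2 (0.120), H2-K1 (0.132), Dtx3l (0.134), Ackr1 (0.137), H2-Ea (0.138), B2m (0.139), Lag3 (0.139), H2-D1 (0.142) and Bend4 (0.146). Over all genes outside the set the median distance was 0.336. Of the members, Gbp7 (0.146), Irgm1 (0.160) and Irgm2 (0.172) were close to their own mean, while Gbp3 (0.285), Igtp (0.332), Gbp2 (0.361) and Iigp1 (0.409) were not. Each member is part of that mean, which shortens its distance beside that of genes outside the set. For Gbp7 the profile averages 2 probe sets that differed by up to 1.19 in a sample. The values of the 8 arrays share the group difference, so this likeness is a description.

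Cell type markers moved between the groups as well. Of 12 measured macrophage markers 6 rose and 0 fell (10 higher, unadjusted), and their mean ranged from -0.019 to 0.56 in immunized samples, against -0.85 to -0.39 in naive samples. In naive replicate 1 it was -0.39, the highest of the naive samples, as in the GTPases. The same held for the T cell, neutrophil, B cell and plasma cell, and erythroid lists. It did not hold for the NK and cytotoxic cell, endothelial and cartilage lists. The 6 macrophage calls became 0 without naive replicate 2 or 3, 2 without immunized replicate 1 and 4 without naive replicate 1. Of 10 T cell markers 1 rose and 1 fell (means from -0.057 to 0.21 in immunized and from -0.27 to 0.093 in naive samples), and with 1 sample left out between 0 and 3 rose and between 0 and 1 fell. Of 8 NK and cytotoxic cell markers 0 passed in limma (3 higher, unadjusted; means from -0.20 to 0.40 in immunized and from -0.27 to -0.14 in naive samples). Of 10 endothelial markers 0 passed in limma (2 higher, unadjusted; -0.091 to 0.48 in immunized and -0.18 to -0.069 in naive samples).

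Of 9 neutrophil markers 3 rose (9 higher, unadjusted; means from -0.11 to 0.54 in immunized and from -0.71 to -0.10 in naive samples). The 3 became 0 after quantile normalization. With 1 sample left out they became 0 for immunized replicates 1, 3 and 5 and naive replicates 2 and 3, 2 for immunized replicate 4 and naive replicate 1, and 6 for immunized replicate 2. Of 9 B cell and plasma cell markers 3 rose (3 higher and 1 lower, unadjusted; -0.10 to 0.25 in immunized and -0.68 to 0.014 in naive samples). This count was 1 after quantile normalization and between 1 and 3 with 1 sample left out. Erythroid markers, of which 0 of 7 passed in limma (1 higher, unadjusted), averaged 0.24, -0.20, 0.88, -0.22 and 0.25 in immunized replicates 1 to 5, against 0.12, -0.40 and -0.12 in naive replicates. Immunized replicates 3 and 5, the lowest immunized samples in Gbp2 and Iigp1, were the highest 2 samples in this list, replicate 5 only just above replicate 1. Other samples went the other way. Immunized replicate 1 was the highest of all samples in Iigp1. Naive replicate 1 was the highest naive sample both in this list and in all 7 GTPases. Of 15 cartilage and nucleus pulposus markers 5 fell (14 lower, unadjusted; -0.88 to 0.33 in immunized and 0.43 to 0.71 in naive samples). The 5 became 0 when immunized replicate 1 or any naive replicate was left out, 12 without immunized replicate 2, and 1 without immunized replicate 4 or 5 or after quantile normalization. The part of these marker changes in the GTPase values was not tested.

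**Figure D4:**
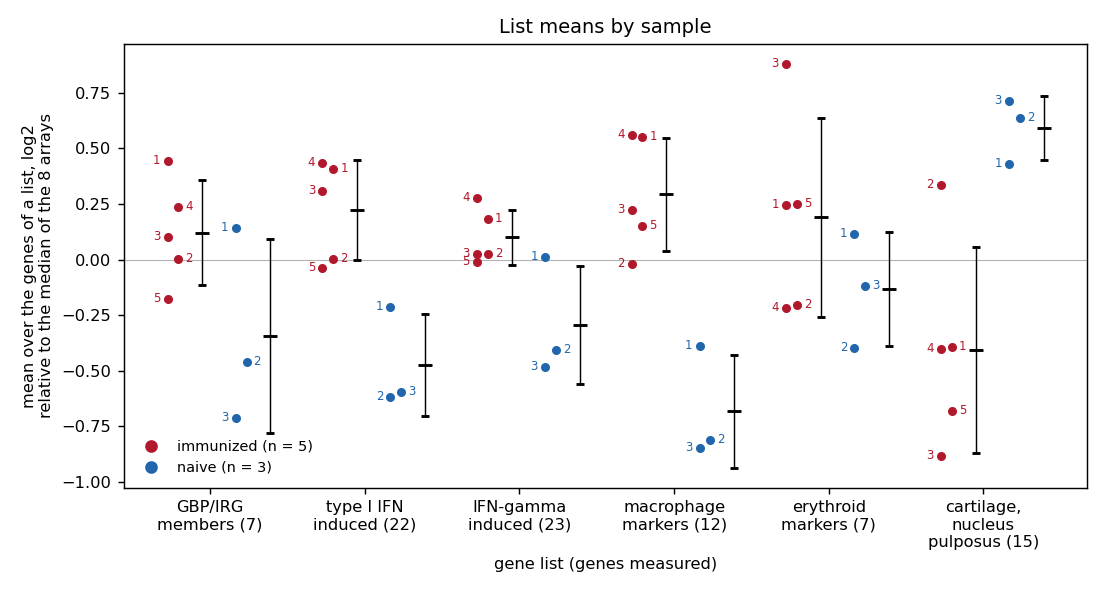
Mean log2 value over the measured genes of 6 lists (y axis, median array of each probe set at 0); points are samples, digits replicate numbers, bars the group mean ± SD (5 immunized, 3 naive). The GTPase and interferon gamma lists overlap between the groups through naive replicate 1, while the type I interferon and macrophage lists do not overlap.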

How the data were processed

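Total RNA of 8 disc samples was measured on 1-colour Affymetrix arrays. The deposited table holds log2 expression, 1 number for each probe set in each sample, made with RMA per the submitters' processing notes, whose version stays unknown here. Every probe set's median over the 8 arrays was 0 to within 5.0e-07, a centring that no label records, so absolute levels are lost. A coarse level of the lowest array was read from the spacing of the values (tolerance 0.25 of a step). Of 45101 probe sets, 64 controls were left out and 34945 named 1 gene through the platform annotation, and symbols were updated through Entrez identifiers with RefSeq, assembly GRCm38.p6 (162 had no match and were kept).

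Groups came from the sample titles. Genes were means of their probe sets and were tested with limma 3.58.1 in R 4.3.3 (lmFit, eBayes, two-sided, no covariate), a procedure tested on simulated data. No batch was modelled, and precision rests on 8 arrays. The members, lists and settings were chosen with earlier results of these data known. Named genes were all members and measured relatives, Ifng and Irf1, called genes and up to 4 genes with the largest moderated t of the pathway lists (cell type lists as counts), and the 10 nearest profiles; 1 further gene of that rule is not reported here. Alternatives covered normalization, probe set choice, low values, variance model, array weights, the replicate block and samples left out; each Gbp7 probe set alone in these settings was added after seeing the data.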

Additional observations from a re-analysis of the deposited data

How the results depend on the processing

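Counts of genes higher and lower over all genes were 812 and 851. They were 540 and 368 after quantile normalization, which moved the share of higher genes among the calls, and 2495 and 3405 with array weights. They were 0 and 0 in limma without immunized replicate 1 and naive replicate 3, whose descriptions join 2 numbers each (1621 and 2173 before adjustment). Without immunized replicates 3 and 5 and naive replicate 1 they were 173 and 45. This trio was chosen from earlier results of these data as the 3 samples high in marrow genes. With 1 sample left out the counts ranged from 17 to 1293 and from 4 to 1710. The GTPase count of 1 was 5 with array weights (Gbp3, Gbp7, Igtp, Irgm1 and Irgm2). There 2495 of all 18193 genes were called higher, against 812 in the main fit. The GTPase count was 2 with probe sets tested singly, where 987 genes were called higher. It was 0 in limma without both joined samples (1 higher before adjustment, against 8.91% of all genes) and without that trio (6, against 10.6%). The median difference of the 7 was 0.293 (5 positive) without both joined samples and 0.793 (7 positive) without the trio. The GTPase count ranged from 0 to 2 with 1 sample left out.

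The replicate numbers gave no clear sign of pairing. Deviations of same-numbered samples correlated at -0.0472, 0.243 and -0.101, and only naive replicate 2 correlated best with its own number. With 3 naive samples this check is too weak to exclude pairing. Naive samples exist only for replicates 1 to 3, so immunized replicates 4 and 5 add nothing to a difference fitted with the replicate block. With this block, 6 genes were higher and 1 lower, and 0 GTPases passed in limma (5 higher before adjustment, against 10.1% of all genes). Adjusted p was 0.0813 for Gbp3 (0.82) and 0.0826 for Gbp7 on 1434380_at.

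Among alternative values of the members, 120 kept direction and side of the threshold, 6 lost and 6 gained a call, and 4, none of them called, turned in sign. Iigp1 was -0.42 without both joined samples, and -0.22 to 0.75 with 1 sample left out. Gbp2 was 0.19 without the trio. Gbp7 was -0.15 on 1425156_at alone, and that probe set was 0.13 with array weights, 0.21 without the trio and -0.37 to 0.17 with 1 sample left out. Among other genes named, 18 values turned. Gbp2b was 0.016 after quantile normalization, 0.096 with array weights, 0.060 with the replicate block, 0.24 without the trio and -0.177 to 0.037 with 1 sample left out. Irgc1 was 0.0070 with array weights and -0.179 to 0.009 with 1 left out. Gbp6 was -0.33 without both joined samples and -0.157 to 0.4 with 1 left out. Irf1 was -0.032 with the block, -0.17 without both joined samples and -0.157 to 0.198 with 1 left out. The causes were not tested.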
